A study of Mus musculus with 9 samples.

Results

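The EGF-family ligands and the ErbB receptors they bind were followed as 10 genes, 7 of them ligands (Areg, Ereg, Btc, Hbegf, Tgfa, Epgn and Egf) and 3 of them receptors (Egfr, Erbb2 and Erbb3). They were found by the RefSeq accession of the array's probes, which gave 12 probes for the 10 genes, among 20660 named genes on the array and 14037 tested ones. Total RNA came from mouse colon organoids, epithelial structures grown in culture from colon, on 9 single-colour Agilent arrays. One group of 3 was untreated (0 weeks), 3 samples had received inflammatory reagents for 12 weeks and 3 for 60 weeks. The labels name neither the reagents nor the mouse strain, age or sex, and they do not say whether the replicates came from separate animals or cultures, so p-values measure the spread between these samples, which may be technical. No untreated organoids of 12 or 60 weeks were among the samples, so effects of the reagents and of long culture cannot be told apart.

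EGF-family ligands are made as membrane-anchored precursors that cell-surface proteases release, and they bind receptors on the same or neighbouring cells. Ligand binding pairs the receptors, whose intracellular kinases then pass the signal through adaptors such as Grb2 and Sos to Ras and ERK and, in parallel, to PI3-kinase and Akt. In the intestinal epithelium this signal is known for its part in the proliferation of crypt cells and in repair after injury.

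A level is given below as the log2 signal relative to the 75th percentile of the array, which itself is 0 on this scale. The level of a probe is not set against that of another, and the marker sums given next are compared only between arrays, for the same probes, so the brightest probes dominate them. Changes are differences of these levels, with their standard error (SE), from 1 limma fit over the 9 arrays, and a gene was called where its Benjamini-Hochberg adjusted p over 14037 genes was under 0.05. Each mean is over n = 3 arrays and is given with its SD.

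On each array 49.2% to 52.75% of the probes gave a signal well above background. Replicate 2 of 12 weeks received a weight of 0.157 when limma weighted arrays by their spread over all genes, against 0.589 to 3.52 for the other arrays, and where leaving it out changed a call of the 10 genes, both values are given. All 12 colon epithelium markers were tested, and their summed level per array, on the linear scale, lay at 2030 to 2440 at 0 weeks, 2270 to 2500 at 12 weeks and 2120 to 2380 at 60 weeks. Among fibroblast markers Pdgfra, Dcn, Lum and Thy1 were not above background on any array, and neither were the leukocyte markers Ptprc and Laptm5 or the endothelial markers Cdh5, Tek and Emcn. The summed level of the 9 fibroblast markers was 84.1 to 97.1 at 0 weeks, then 56.2 to 79.0 at 12 weeks and 47.6 to 65.2 at 60 weeks. Nearly all of it is Fn1 (log2 level 6.52 ± 0.12, 6.12 ± 0.27 and 5.82 ± 0.23), and other members moved differently (Col1a1 and Vim, given with Nrg1 below), so the sum is no reading of fibroblast content. The summed level of the 7 leukocyte markers on the array was 16.7 to 23.4, then 24.3 to 48.0, then 27.3 to 34.4. Most of it is Itgam (log2 level 3.91 ± 0.31, 4.60 ± 0.69 and 4.63 ± 0.15). Its changes from 0 weeks were not called (adjusted p = 0.114 and 0.119 by limma). Csf1r went the other way at 60 weeks (-0.37, adjusted p = 0.0169), so this sum is no reading of leukocyte content either. In bulk RNA, fewer cells of a type and less RNA per cell cannot be told apart.

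The first comparison asks how the ligands and receptors differed after 12 weeks of treatment from the untreated organoids. Of the ligands 5 rose (Areg, Ereg, Btc, Hbegf and Epgn), 1 fell (Egf), and Tgfa did not pass the test. Of the receptors Egfr rose, Erbb2 fell and Erbb3 did not pass. In all, 6 of the 10 genes were called higher and 2 lower, where 19.1% of all tested genes were called higher, 22.7% lower and 41.8% either way. Their median change was 0.65, against -0.056 over all tested genes. These counts include Egf and Epgn, which passed the filter on dim probes only through the group where each was high (0 weeks for Egf, 12 and 60 weeks for Epgn), so their calls are a description. The 12 and 0 weeks arrays did not overlap for 8 of the 10, and for 54.6% of all tested genes.

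After 60 weeks the same comparison with the untreated organoids gave 7 of 10 genes higher and 2 lower, against 16.7% and 16.1% of all tested genes, 32.8% in all. Erbb3 was called here in addition to those of 12 weeks, and Tgfa again was not. The median change was 0.78, against -0.042 over all genes. The arrays of the groups did not overlap for 9 of the 10 genes, and for 56.5% of all genes. Both comparisons use the same 0 weeks arrays, so they are not independent. Egf and Epgn are again among the called genes.

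Between 12 and 60 weeks fewer of these genes were called. In detail 2 rose (Tgfa and Erbb3), 2 fell (Ereg and Btc) and 6 did not pass, against 38.3% of all tested genes called, 20.7% higher and 17.6% lower. The groups did not overlap for 5 of 10 genes and for 47.3% of all genes. In limma's F test over the 3 groups 9 of the 10 genes were called, Tgfa being the exception (adjusted p = 0.068), and so were 56.7% of all tested genes. The 9 include Egf and Epgn, whose calls are a description here too.

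**Figure D1:**
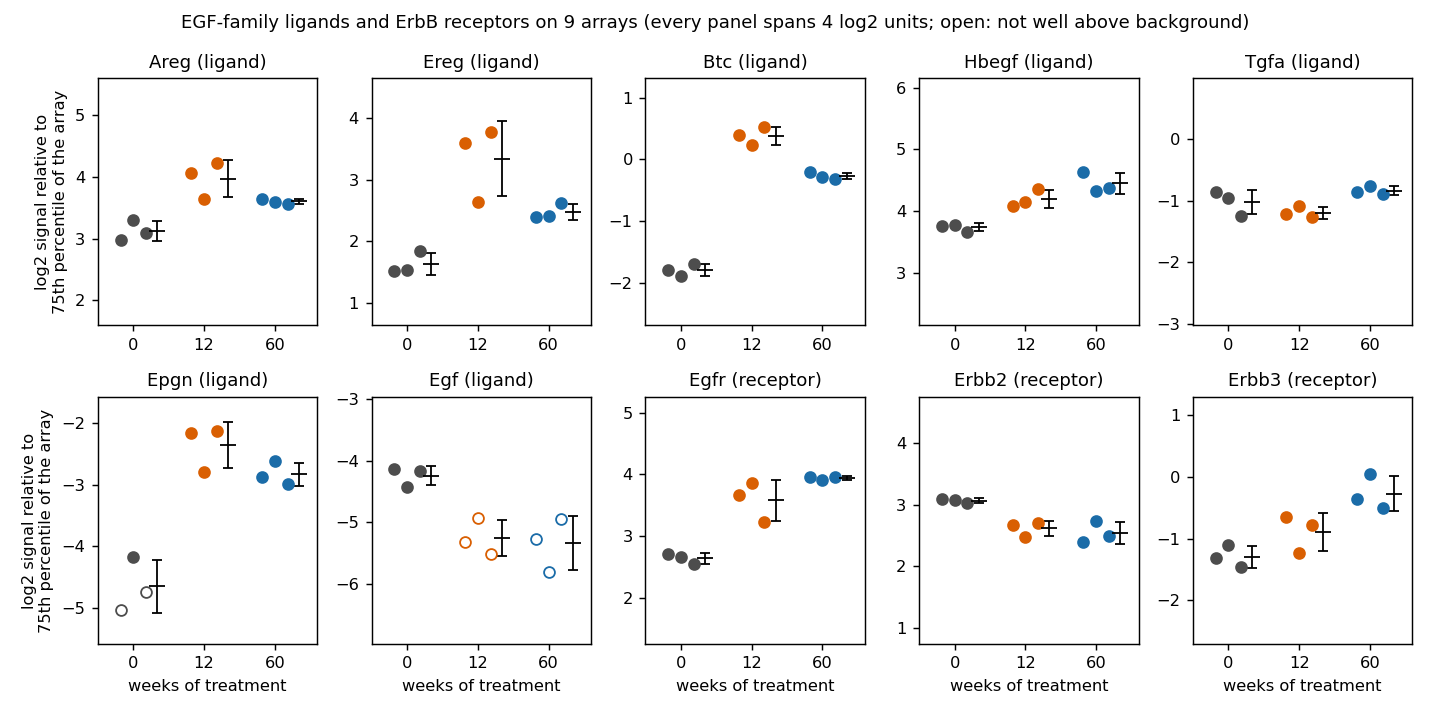
Level of each ligand and receptor on each of the 9 arrays, by weeks of treatment (horizontal axis), as log2 signal relative to the 75th percentile of the array (vertical axis, 4 log2 units in every panel). Points are single arrays, open where the probe was not well above background, and the bars give the mean ± SD of 3 arrays. Btc lies between -1.89 and -1.70 at 0 weeks and between 0.23 and 0.52 at 12 weeks, while Tgfa stays between -1.27 and -0.76 throughout.

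**Figure D2:**
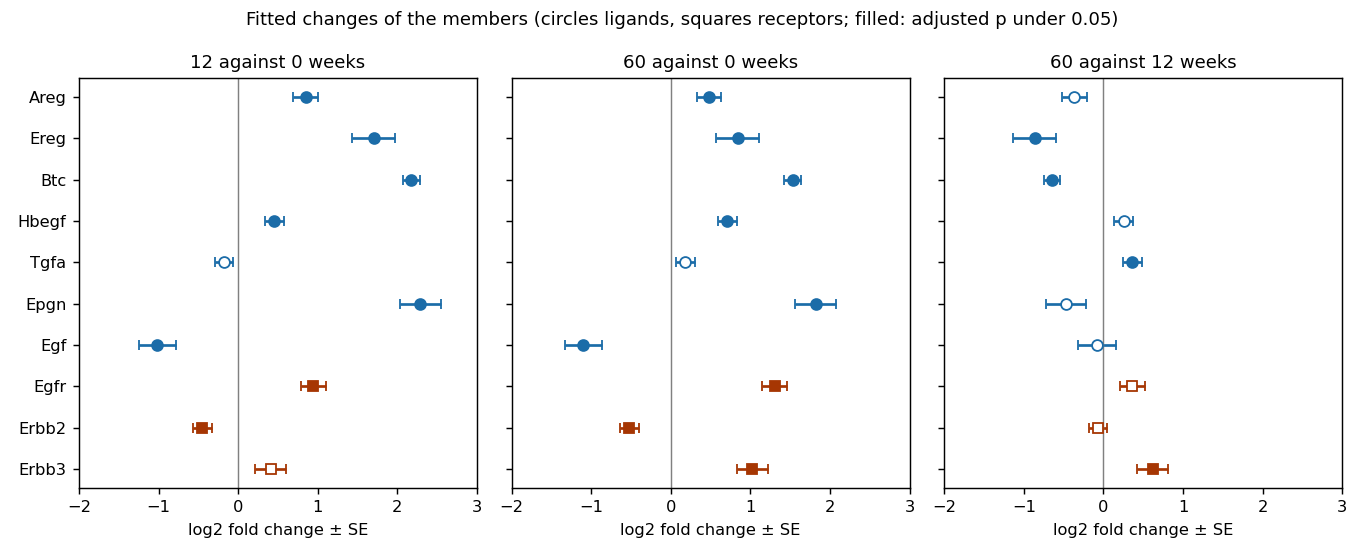
Fitted log2 fold change ± SE (horizontal axis) of each gene (vertical axis) in the 3 comparisons, with circles for ligands, squares for receptors and filled symbols for an adjusted p under 0.05. At 12 against 0 weeks the changes run from -1.02 for Egf to 2.29 for Epgn. The Egf symbols of the first 2 panels rest on arrays not above background at 12 and 60 weeks, so that only its bounds in the text are measured.

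Epgn, Ereg, Areg and Btc lie next to each other on chromosome 5 in that order, with 3 genes known only by Gm numbers between them, none of which has a probe here. The 4 genes are shown together because all were called higher at 12 and at 60 weeks. The 250 bases before the RefSeq start of 3 of them are printed below from build GRCm38.p6, 5′ to 3′ on the strand of the gene, with the capitals marking TATAAA, the TATA box letters, and TGACGTCA, the cyclic AMP response element. The regions are chr5:91027267-91027516 on the plus strand for Epgn, chr5:91139349-91139598 on the plus strand for Areg and chr5:91402995-91403244 on the minus strand for Btc.
Epgn: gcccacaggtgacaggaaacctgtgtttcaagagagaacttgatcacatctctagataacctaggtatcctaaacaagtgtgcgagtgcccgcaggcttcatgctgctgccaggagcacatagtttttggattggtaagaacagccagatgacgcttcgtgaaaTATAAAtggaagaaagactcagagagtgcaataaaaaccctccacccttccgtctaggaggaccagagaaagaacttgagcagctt
Areg: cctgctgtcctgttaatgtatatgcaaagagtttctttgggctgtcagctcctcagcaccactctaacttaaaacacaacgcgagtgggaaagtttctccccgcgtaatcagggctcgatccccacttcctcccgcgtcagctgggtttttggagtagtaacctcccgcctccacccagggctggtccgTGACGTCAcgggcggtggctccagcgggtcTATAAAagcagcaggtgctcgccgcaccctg
Btc: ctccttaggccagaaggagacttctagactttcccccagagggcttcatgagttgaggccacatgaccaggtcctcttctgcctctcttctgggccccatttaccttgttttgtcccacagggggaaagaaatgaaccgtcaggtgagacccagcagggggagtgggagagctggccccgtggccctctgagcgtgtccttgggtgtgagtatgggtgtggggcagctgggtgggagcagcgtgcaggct
In Areg the cyclic AMP response element begins 61 bases and TATAAA 31 bases before the start, and in Epgn TATAAA begins 86 bases before it. Of 32851 promoter windows of this length, 1.55% hold TGACGTCA on either strand and 7.59% hold TATAAA on the strand of the gene. The AP-1 letters TGANTCA (6.75% of windows, either strand) and the NF-kB motif (7.25%, either strand) had no match in the windows of the 7 genes that have one, and the TEAD letters GGAATG (12.6%, either strand) matched that of Erbb2. No searched motif contains another. The GC content was 46.8% for Epgn, 57.2% for Areg and 59.6% for Btc, where the median window has 52.4%. These matches describe letters only, and no binding was measured.

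Areg encodes amphiregulin, an Egfr ligand of epithelial repair. Its level was 2.98, 3.31 and 3.1 on the 0 weeks arrays, 4.07, 3.64 and 4.22 on those of 12 weeks, and 3.65, 3.60 and 3.57 on those of 60 weeks. Every treated array lay above every untreated one, and replicate 2 of 12 weeks, the lowest of its group, lay among the 60 weeks values. Areg was 1.8-fold higher at 12 weeks (log2 0.85, SE 0.16, adjusted p = 0.0034) and 1.39-fold higher at 60 weeks (log2 0.48, SE 0.16, adjusted p = 0.0463). The call at 60 weeks was lost in 13 of 22 alternatives (adjusted p = 0.00466 to 0.257), among them leaving out any 1 of the 0 weeks or 60 weeks replicates or replicate 1 of 12 weeks (0.0539 to 0.141). The 60 weeks mean was 0.37 below that of 12 weeks, which did not pass (adjusted p = 0.0954), but did without replicate 2 of 12 weeks (-0.54, adjusted p = 0.00653).

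Ereg encodes epiregulin, which binds Egfr and Erbb4. Its level was 1.52, 1.54 and 1.84 at 0 weeks, 3.60, 2.64 and 3.77 at 12 weeks, then 2.39, 2.42 and 2.62 at 60 weeks. The 3 groups did not overlap, though replicate 2 of 12 weeks was only just above the highest 60 weeks array. Ereg rose 3.26-fold at 12 weeks (log2 1.71, SE 0.27, adjusted p = 0.00166) and was 1.79-fold higher at 60 weeks (log2 0.84, SE 0.27, adjusted p = 0.0437). At 60 weeks it was also below 12 weeks (-0.86, SE 0.27, adjusted p = 0.0353). Without replicate 2 of 12 weeks the 12 weeks rise was 2.05 and the later fall -1.21. Each of the comparisons of 60 weeks lost its call in 10 of 22 alternatives (adjusted p = 0.00109 to 0.217 against 0 weeks and 0.000284 to 0.141 against 12 weeks), including without any 1 of the 0 weeks or 60 weeks replicates for the first (0.0677 to 0.12), and without any 1 of the 60 weeks replicates, replicates 1 or 3 of 12 weeks or replicates 1 or 2 of 0 weeks for the second (0.0527 to 0.113).

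Betacellulin, the product of Btc, binds Egfr and Erbb4. The level of Btc was -1.80, -1.89 and -1.70 at 0 weeks, 0.39, 0.23 and 0.52 at 12 weeks, then -0.20, -0.29 and -0.31 at 60 weeks. The groups were well separated, with an SD of at most 0.14 in any of them, and the order was 12, then 60, then 0 weeks. Btc rose 4.52-fold at 12 weeks (log2 2.18, SE 0.10, adjusted p = 3.04e-06) and was 2.89-fold higher at 60 weeks (log2 1.53, SE 0.10, adjusted p = 2.01e-05). Between 12 and 60 weeks it fell by 0.65 (SE 0.10, adjusted p = 0.00228). All 3 calls were kept in all 22 alternatives.

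Epgn encodes epigen, a ligand of Egfr. Its level was -5.03, -4.18 and -4.74 at 0 weeks, where only replicate 2 was well above background, -2.16, -2.79 and -2.13 at 12 weeks, then -2.88, -2.62 and -2.99 at 60 weeks. Treated and untreated arrays did not overlap, and those of 12 and 60 weeks did. The fitted rise was 4.89-fold at 12 weeks (log2 2.29, SE 0.25) and 3.53-fold at 60 weeks (log2 1.82, SE 0.25). Epgn passed the filter only through the 12 and 60 weeks arrays, so its changes from 0 weeks are a description in every fit. Their size depends on how background is treated: with normexp correction, which pulls dim values together, the changes were 0.95 and 0.71. The difference between 12 and 60 weeks (-0.47) passed only with array weights or without replicate 2 of 12 weeks (-0.69, adjusted p = 0.0457).

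Chromosome 5 as a whole lay slightly higher in treated organoids, with a median change of 0.17 at 12 weeks and 0.11 at 60 weeks over 876 tested genes. Measured against that median, all 4 genes kept their call at 12 weeks, that of Epgn being a description. At 60 weeks Btc (1.40, adjusted p = 3.51e-05) kept it, while Areg (0.35, adjusted p = 0.142) and Ereg (0.71, adjusted p = 0.0787) did not. Epgn stood at 1.69 there and was called, again as a description.

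The nearest tested genes on the Epgn side were Mthfd2l, which encodes a mitochondrial folate enzyme, and Cxcl2, which encodes a neutrophil-attracting chemokine. Mthfd2l changed by 0.23 (adjusted p = 0.0782) and 0.22 (adjusted p = 0.101), neither past the threshold. Cxcl2 was not above background at 0 weeks, so its rise is a bound, at least 23.6-fold at 12 weeks and at least 7.1-fold at 60 weeks. These bounds set a dim array at the lowest signal called well above background on it. On the Btc side Parm1 fell by 0.33 (adjusted p = 0.0304) and 0.60 (adjusted p = 0.0028), and Rchy1, a ubiquitin ligase gene, rose by 0.51 (adjusted p = 0.00506) and 0.40 (adjusted p = 0.0184). Rises at both times were thus called for Ereg, Areg, Btc and Rchy1. Those of Epgn and Cxcl2 are a description, as each passed the filter only through the treated arrays. Mthfd2l and Parm1, the tested genes next to the ligand cluster on either side, were not called higher, though both changes of Mthfd2l were positive.

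**Figure D3:**
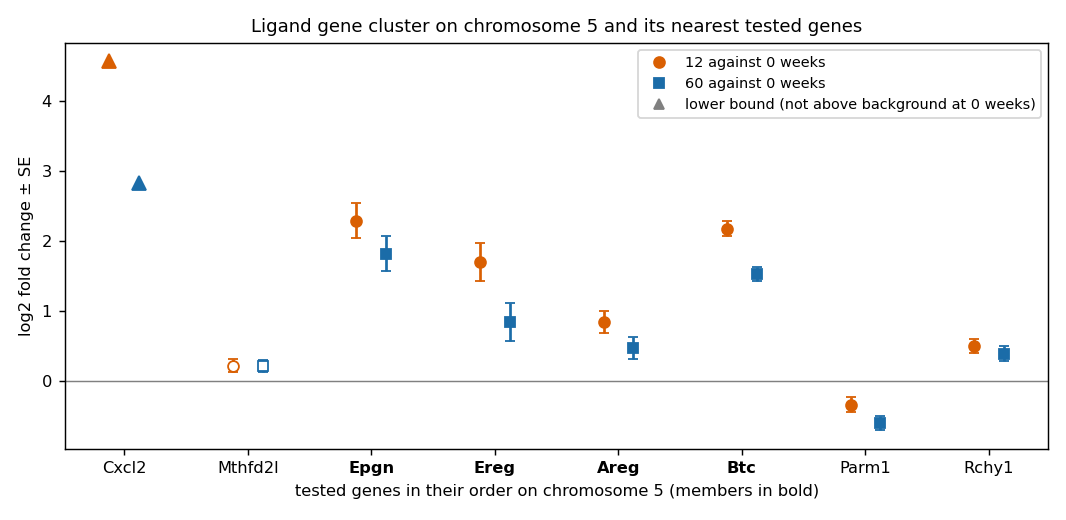
Log2 fold change ± SE (vertical axis) of the 4 ligand genes of chromosome 5 and the nearest 2 tested genes on either side, in their order on the chromosome (horizontal axis, not to scale), at 12 against 0 weeks (circles) and 60 against 0 weeks (squares), filled for an adjusted p under 0.05. Triangles are lower bounds for Cxcl2, which was not above background at 0 weeks. Each of the 4 ligand genes lies higher at 12 than at 60 weeks, from 0.85 and 0.48 for Areg to 2.29 and 1.82 for Epgn.

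Hbegf lies on chromosome 18 and encodes heparin-binding EGF-like growth factor, which binds Egfr and Erbb4. Its level was 3.76, 3.78 and 3.66 at 0 weeks, 4.08, 4.14 and 4.36 at 12 weeks, then 4.64, 4.32 and 4.38 at 60 weeks. All 6 treated arrays lay above the untreated ones, and those of 12 and 60 weeks overlapped. Hbegf was 1.37-fold higher at 12 weeks (log2 0.46, SE 0.12, adjusted p = 0.0158) and 1.64-fold higher at 60 weeks (log2 0.71, SE 0.12, adjusted p = 0.00261). The 12 weeks call was lost without replicate 3 of 0 weeks (0.42, adjusted p = 0.0584) or replicate 3 of 12 weeks (0.38, adjusted p = 0.0564). The median of chromosome 18 moved the other way, at -0.13 and -0.16.

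Tgfa, whose product binds Egfr, was the ligand that passed the test at neither time against 0 weeks. Its level was -0.86, -0.96 and -1.24 at 0 weeks, -1.22, -1.09 and -1.27 at 12 weeks, then -0.85, -0.76 and -0.89 at 60 weeks. The 12 and the 60 weeks arrays each overlapped those of 0 weeks but not each other. The change was -0.18 at 12 weeks (95% confidence interval -0.45 to 0.09, adjusted p = 0.252) and 0.18 at 60 weeks (-0.08 to 0.45, adjusted p = 0.263). From 12 to 60 weeks Tgfa rose by 0.36 (SE 0.12, adjusted p = 0.04), a call lost in 10 of 22 alternatives (adjusted p = 0.0113 to 0.129), among them leaving out any 1 of the 60 weeks replicates, replicate 2 of 0 weeks or replicates 1 or 3 of 12 weeks (0.0621 to 0.121). One 12 weeks array had a spot set aside as an outlier, and its value rests on the remaining spots of the probe.

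Egf, the founding member of the family, was dim throughout. Its level was -4.14, -4.42 and -4.16 at 0 weeks, well above background on all 3 arrays, then -5.32, -4.93 and -5.51 at 12 weeks and -5.27, -5.80 and -4.94 at 60 weeks, above background on 0 of 3 arrays each time. The groups did not overlap between 0 weeks and either later time. Egf was at least 1.61-fold lower at 12 weeks and at least 1.44-fold lower at 60 weeks. Egf passed the filter only through the 0 weeks arrays, so these bounds are a description with no test behind them. With normexp correction its fitted changes were not called (-0.31, adjusted p = 0.0538 and -0.20, adjusted p = 0.22). Outlier spots were set aside on 1 array of 0 weeks and 2 of 12 weeks.

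Egfr, the receptor for all 7 ligands, had 3 probes on the array, 1 designed against NM_207655 and 2 against NM_007912. The probe A_52_P106259 (NM_207655), the brightest and the one used for the gene, read 2.70, 2.66 and 2.54 at 0 weeks, 3.66, 3.86 and 3.22 at 12 weeks, then 3.95, 3.90 and 3.96 at 60 weeks. The 3 groups did not overlap and stood in the order of time. By this probe Egfr was 1.92-fold higher at 12 weeks (log2 0.94, SE 0.16, adjusted p = 0.00205) and 2.47-fold higher at 60 weeks (log2 1.31, SE 0.16, adjusted p = 0.000468). The step from 12 to 60 weeks (0.36, adjusted p = 0.0993) did not pass, but did without replicate 2 of 12 weeks (0.51, adjusted p = 0.0166). Outlier spots were set aside on 2 arrays of 0 weeks.

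The other probes of Egfr differed from it at 12 weeks. A_55_P1956862 read 0.03, 0.36 and 0.18 at 0 weeks, -0.03, 1.16 and -0.23 at 12 weeks, then 1.59, 1.75 and 1.55 at 60 weeks. A_55_P1956863 read -0.01, 0.38 and 0.19, then 0.37, 1.13 and 0.23, then 1.51, 1.73 and 1.34. On both, replicate 2 alone was high at 12 weeks, while replicates 1 and 3 lay below the untreated arrays on A_55_P1956862 and among them on A_55_P1956863. Their changes at 12 weeks were 0.11 (SE 0.32, adjusted p = 0.806) and 0.39 (SE 0.23, adjusted p = 0.21), in a fit over all 18400 named probes above background. At 60 weeks they were 1.44 (adjusted p = 0.0102) and 1.34 (adjusted p = 0.00336), near the 1.31 of the first probe. From 12 to 60 weeks both rose, by 1.33 (adjusted p = 0.0129) and 0.95 (adjusted p = 0.0146). Without replicate 2 of 12 weeks the 12 weeks changes were -0.32 (SE 0.13, adjusted p = 0.0708) and 0.12 (SE 0.15, adjusted p = 0.549), and the later rises 1.76 (adjusted p = 5.19e-05) and 1.22 (adjusted p = 0.000608). The first probe in the same fit kept a change of 0.80 at 12 weeks (SE 0.13, adjusted p = 0.00217). The rise of Egfr at 60 weeks was thus read by 3 of 3 probes and that at 12 weeks by 1 of 3, and with the mean of the 3 probes the 12 weeks change was 0.48 (adjusted p = 0.117).

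**Figure D4:**
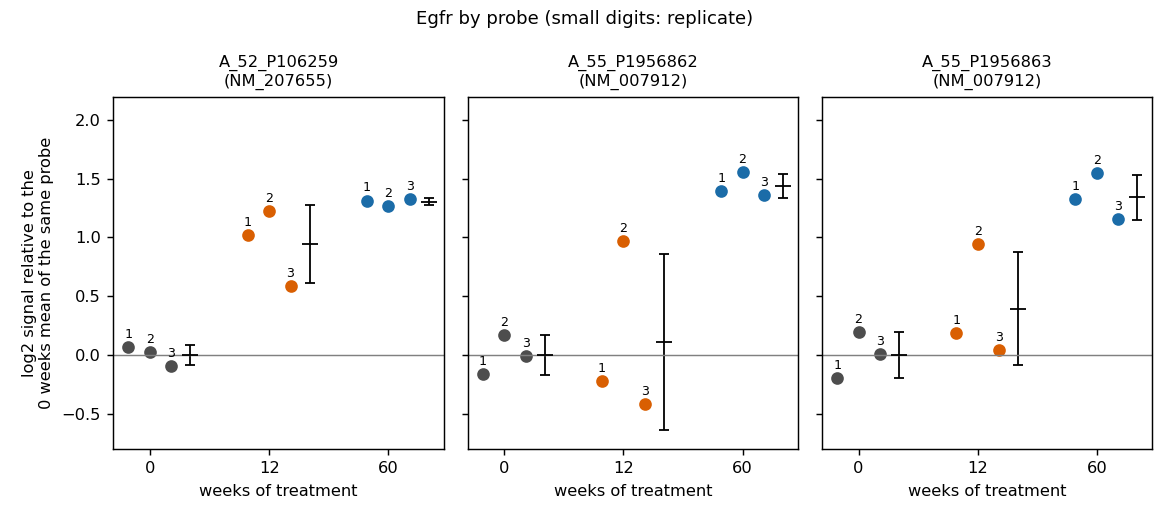
The 3 probes of Egfr on each array, as log2 signal relative to the 0 weeks mean of the same probe (vertical axis), by weeks of treatment (horizontal axis), with the replicate number beside each point and bars for the mean ± SD of 3 arrays. At 60 weeks the means of the probes lie between 1.31 and 1.44, while at 12 weeks they lie at 0.94, 0.11 and 0.39 and replicate 2 is the highest array on every probe.

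Erbb2, a receptor with no known ligand of its own that pairs with the other ErbB receptors, fell. Its level was 3.1, 3.07 and 3.03 at 0 weeks, 2.67, 2.47 and 2.71 at 12 weeks, then 2.39, 2.74 and 2.50 at 60 weeks. Every treated array was below every untreated one, and the 12 and 60 weeks arrays overlapped. Erbb2 was 1.37-fold lower at 12 weeks (log2 -0.45, SE 0.12, adjusted p = 0.0153) and 1.44-fold lower at 60 weeks (log2 -0.52, SE 0.12, adjusted p = 0.0102). The 12 weeks call was lost without replicate 1 (-0.43, adjusted p = 0.0508) or 2 (-0.45, adjusted p = 0.0502) of 0 weeks and against the median of chromosome 11, itself at -0.13 (-0.32, adjusted p = 0.0643). Outlier spots were set aside on 1 array of 0 weeks and 2 of 60 weeks.

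Erbb3, a neuregulin receptor with a weak kinase that signals in pairs with Erbb2 and Egfr, was -1.31, -1.11 and -1.46 at 0 weeks, -0.65, -1.23 and -0.78 at 12 weeks, then -0.36, 0.05 and -0.50 at 60 weeks. The 60 weeks arrays lay above all others, and replicate 2 of 12 weeks lay among the untreated ones. Erbb3 was 2.04-fold higher at 60 weeks (log2 1.03, SE 0.20, adjusted p = 0.00512). At 12 weeks its change of 0.41 (95% confidence interval -0.04 to 0.86, adjusted p = 0.128) did not pass, but without replicate 2 of 12 weeks it did (0.58, adjusted p = 0.0278). Erbb3 lies on chromosome 10, whose median over 653 tested genes was -0.082 at 12 weeks and 0.28 at 60 weeks, and 0.34 at 60 against 12 weeks. Against this median Erbb3 was still called at 60 weeks (0.72, adjusted p = 0.0339), while its rise from 12 to 60 weeks (0.62, SE 0.20, adjusted p = 0.0378) came to 0.25 (adjusted p = 0.382). That later rise was lost in 12 of 21 alternatives in all (adjusted p = 0.029 to 0.382), among them leaving out any 1 of the 0 weeks replicates, replicates 2 or 3 of 12 weeks or replicates 1 or 2 of 60 weeks (0.0506 to 0.115). Without replicate 2 of 12 weeks it was 0.44 (adjusted p = 0.0733).

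The position of the arrays moved partly with the groups. The 3 untreated arrays and replicate 1 of 12 weeks were on row 1 of a slide, replicates 2 and 3 of 12 weeks and 1 and 2 of 60 weeks on row 2, and replicate 3 of 60 weeks was the only array from a second slide. Within row 1 the single 12 weeks array differed from the untreated mean by 2.19 for Btc, 2.49 for Epgn, 1.97 for Ereg and 1.02 for Egfr. Within row 2 the 60 weeks mean differed from the 12 weeks mean by -0.80 for Ereg, -0.62 for Btc and 0.85 for Erbb3. These values come from arrays that are also in the fit and are not independent of it. The 0 and 60 weeks arrays shared no row, so no value within a row exists for that comparison. With the row as a block 6 genes were called at 12 weeks, where Hbegf (adjusted p = 0.171) and Erbb2 (adjusted p = 0.133) were lost. At 60 against 0 weeks 4 were called (Btc, Epgn, Egfr and Erbb3), and Areg (adjusted p = 0.257), Ereg (0.217), Hbegf (0.168), Egf (0.0791) and Erbb2 (0.296) were lost. The calls of Epgn and Egf are a description in this fit too, as each passed the filter only where it was high. Replicate 3 of 60 weeks was a block of its own. The share of all tested genes called with this block is not given here, so the losses are not read as particular to these genes.

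For each gene the 3 tested genes with the most similar levels over the 9 arrays were found by the root-mean-square (RMS) difference of levels centred on each gene's mean, among 13355 genes with names other than clone or predicted-gene names. For Areg they were Ptbp3 (0.0768), Cdc42bpb (0.109) and Chic2 (0.114), where the RMS of Areg's own centred levels was 0.383. Those of Ereg were Serpinb1a (0.146), Nipal1 (0.15) and Gnpnat1 (0.18), with 0.76 for Ereg itself. Nearest to Btc were Exoc3l4 (0.11), Zfp82 (0.143) and Cyba (0.167), against 0.917 for its own levels, and nearest to Epgn were Cachd1 (0.231), Nrxn2 (0.244) and Itpk1 (0.263), against 1.03. None of these 4 ligand genes was among the 3 nearest of another.

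Mob3a (0.0856), Rell1 (0.0979) and Esyt1 (0.104) were closest to Hbegf, Arhgef28 (0.0629), Abl2 (0.0662) and Trp53bp1 (0.07) to Tgfa, and Tarsl2 (0.137), Smyd4 (0.162) and Psap (0.183) to Egf. Among the receptors Egfr was closest to Lif (0.109), a cytokine gene, Prxl2a (0.109) and Kcnk6 (0.145). Erbb2 was closest to Msantd2 (0.0586), Diras1 (0.0784) and Smc1a (0.0825), and Erbb3 to Tnrc18 (0.128), Afdn (0.136) and Syvn1 (0.136). The RMS of the own levels was 0.574 for Egfr, 0.254 for Erbb2 and 0.473 for Erbb3. Likeness is a description over arrays that share their groups.

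Beyond these 10 genes, 5 further members of the family were on the array, the receptor Erbb4 and the neuregulins Nrg1 to Nrg4. Only Nrg1, a ligand of Erbb3 and Erbb4, was bright enough to test. Its level was -6.62, -6.60 and -6.58 at 0 weeks and -6.73, -5.24 and -6.74 at 60 weeks, not above background on any of these arrays, and -2.33, -2.09 and -2.69 at 12 weeks, above background on all 3. Nrg1 was thus at least 5.16-fold higher at 12 than at 0 weeks and at least 5.27-fold lower at 60 than at 12 weeks. It passed the filter only through the 12 weeks arrays, so these bounds are a description with no test behind them. Of the fibroblast markers Vim was also above background only at 12 weeks (-2.50 ± 0.56). Col1a1, a collagen gene, went the other way: it read -3.26 ± 0.27 at 0 weeks, fell below the background limit on all 3 arrays of 12 weeks and read -3.15 ± 0.34 at 60 weeks. Fn1 changed by -0.41 at 12 weeks (adjusted p = 0.0812) and Col1a2 by 0.01 (adjusted p = 0.979), while Pdgfra, Dcn, Lum and Thy1 were never above background. The part of these markers in the Nrg1 values was not tested.

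The other genes of the pathway fall into 5 lists. Among all tested genes 41.8% were called at 12 weeks (19.1% higher, 22.7% lower) and 32.8% at 60 weeks (16.7% higher, 16.1% lower), and each list's counts stand beside these shares. With the slide row as a block the called genes of these lists and the neuregulins came to 6 of 86 at 60 against 0 weeks (4 higher, 2 lower), where 31 were called without it, so most of the 60 weeks calls below are lost in that fit. The share of all tested genes called with this block is not given here, so that loss is not read as particular to the lists. Several chromosomes had medians away from 0 at 12 and 60 weeks: 0.26 and 0.21 for chromosome 4 (Rhbdl2, Errfi1 and Epha2), 0.23 and 0.22 for chromosome 12 (Adam17 and Akt1), 0.20 and 0.13 for chromosome 14 (Socs4), -0.082 and 0.28 for chromosome 10 (Timp3, Rnf41, Lrig3, Dusp6 and Phlda1), and -0.035 and 0.37 for chromosome 19 (Fosl1 and Dusp5).

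Of 12 genes of ligand shedding, 11 were tested. At 12 weeks 2 were higher and 2 lower (4 of 11, beside 41.8% of all genes), with a list median of 0.19, and at 60 weeks 3 were higher and 2 lower (5 of 11, beside 32.8%), with a median of 0.15. Timp3 encodes an inhibitor of the shedding proteases. It went from -3.03 ± 0.25 at 0 weeks to 1.41 ± 0.97 at 12 weeks (log2 4.44, SE 0.47, adjusted p = 0.000212). At 60 weeks Timp3 was not above background on any array, at least 3.35-fold below 0 weeks and at least 72.7-fold below 12 weeks. It is counted among the lower genes at 60 weeks, but these bounds are a description with no test behind them. Adam17, the main sheddase of several EGF-family precursors, was 0.72 higher at 60 weeks (SE 0.14, adjusted p = 0.00592), and Adam10, which sheds Egf and Btc, was 0.44 higher (adjusted p = 0.0181). At 12 weeks the brighter Adam17 probe changed by 0.20 (adjusted p = 0.281), while the second probe rose by 0.70 (adjusted p = 0.00884). Rhbdl2, a rhomboid protease gene, rose at both times, by 0.65 (adjusted p = 0.000796) and 0.35 (adjusted p = 0.0181). Bace1 fell at both times, by 1.03 and 0.69, and Adam8 was 1.01 lower at 12 weeks (adjusted p = 0.0221) and rose by 1.78 from there to 60 weeks (adjusted p = 0.00229). Without replicate 2 of 12 weeks these values of Adam8 were -1.40 and 2.17, and its difference of 60 from 0 weeks, 0.76, passed (adjusted p = 0.000585, against 0.0734 with all arrays).

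The 17 genes of receptor inhibition and turnover were all tested. At 12 weeks 6 were higher and 0 lower (6 of 17, beside 41.8% of all genes) with a median of 0.097, and at 60 weeks 10 were higher and 2 lower (12 of 17, beside 32.8%) with a median of 0.51. With the slide row as a block 2 were higher and 0 lower at 60 weeks. Errfi1, whose product binds and inhibits the kinase of Egfr, rose from 4.62 ± 0.07 to 5.53 ± 0.10 at 12 weeks (adjusted p = 0.00031) and 6.05 ± 0.13 at 60 weeks (adjusted p = 2.9e-05). Its change from 12 to 60 weeks, 0.53, also passed (adjusted p = 0.00547). Socs4 rose by 1.01 (adjusted p = 0.000885) and 1.09 (adjusted p = 0.000714), and Rnf41, whose product is a ubiquitin ligase for Erbb3, by 0.52 (adjusted p = 0.00484) and 0.57 (adjusted p = 0.00405). The second probe of Rnf41 rose more, by 0.98 (adjusted p = 0.00117) and 1.27 (adjusted p = 0.00037). Lrig1, which encodes a membrane inhibitor of ErbB receptors and marks stem cells of the crypt, rose by 0.55 (adjusted p = 0.0373) and 0.82 (adjusted p = 0.00957). Its relative Lrig3 changed by -0.50 at 12 weeks (adjusted p = 0.0519, and -0.71 with 0.00216 without replicate 2 of 12 weeks) and rose by 1.33 at 60 weeks (adjusted p = 0.000907). Ptprj, a receptor phosphatase gene, rose by 0.94 (adjusted p = 0.00601) and 0.59 (adjusted p = 0.0491), and Socs5 fell by 0.91 at 60 weeks (adjusted p = 0.000938).

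Of 12 genes of feedback on ERK signalling 10 were tested, of which 4 were higher and 1 lower at 12 weeks (5 of 10, beside 41.8% of all genes, median 0.31) and 3 higher and 1 lower at 60 weeks (4 of 10, beside 32.8%, median 0.27). Dusp6, an ERK phosphatase gene, rose by 0.43 (SE 0.10, adjusted p = 0.0116) and 0.81 (SE 0.10, adjusted p = 0.000663), and Dusp9 by 1.22 (adjusted p = 0.00502) and 1.37 (adjusted p = 0.00358). Dusp5 rose by 0.93 at 12 weeks (adjusted p = 0.0328). Against these, Spry1, which encodes a Sprouty inhibitor of the pathway, fell from 4.28 ± 0.15 to 2.61 ± 0.12 at 12 weeks (adjusted p = 3.24e-05) and 3.50 ± 0.17 at 60 weeks (adjusted p = 0.00223). Spry4 is counted among the higher genes at both times, but it was above background only at 12 weeks, on 2 of 3 arrays. No size was measured, and at 60 against 0 weeks both groups were below background.

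Among 20 genes known to respond to ERK, 19 were tested. At 12 weeks 5 were higher and 1 lower (6 of 19, beside 41.8% of all genes), and at 60 weeks 6 were higher and 2 lower (8 of 19, beside 32.8%), with medians of 0.23 and 0.30. Phlda1 rose by 0.93 (SE 0.16, adjusted p = 0.00227) and 2.14 (SE 0.16, adjusted p = 3.09e-05), Ier3 by 1.24 (adjusted p = 0.000268) and 1.22 (adjusted p = 0.000363), and Fosl1, which encodes an AP-1 subunit, by 0.90 (adjusted p = 0.00265) and 1.40 (adjusted p = 0.000339). Epha2 rose by 0.83 (adjusted p = 0.00103) and 0.57 (adjusted p = 0.00761), and Egr1 by 0.92 (adjusted p = 0.00571) and 0.98 (adjusted p = 0.00506). In the other direction, Etv1 fell by 1.40 (adjusted p = 0.000322) and Ccnd1, which encodes cyclin D1, fell by 0.83 at 60 weeks (adjusted p = 0.000534), while Ccnd1 changed by 0.02 at 12 weeks (adjusted p = 0.893).

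The 28 genes of adaptors and kinases were all tested. At 12 weeks 4 were higher and 3 lower (7 of 28, beside 41.8% of all genes, median -0.13), and at 60 weeks 0 were higher and 2 lower (2 of 28, beside 32.8%, median -0.045). Akt1 rose by 0.43 at 12 weeks (adjusted p = 0.00423), and the adaptor genes Grb2 and Gab2 fell by 0.44 (adjusted p = 0.00927) and 0.57 (adjusted p = 0.0144). The probe used for Araf rose by 0.49 (adjusted p = 0.00808), but its other probes fell by 1.14 (adjusted p = 0.00768) and 1.43 (adjusted p = 0.00966), so no direction is given for this gene. At 60 weeks Hras fell by 0.41 (adjusted p = 0.0175) and Pik3cb by 0.47 (adjusted p = 0.0473).

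**Figure D5:**
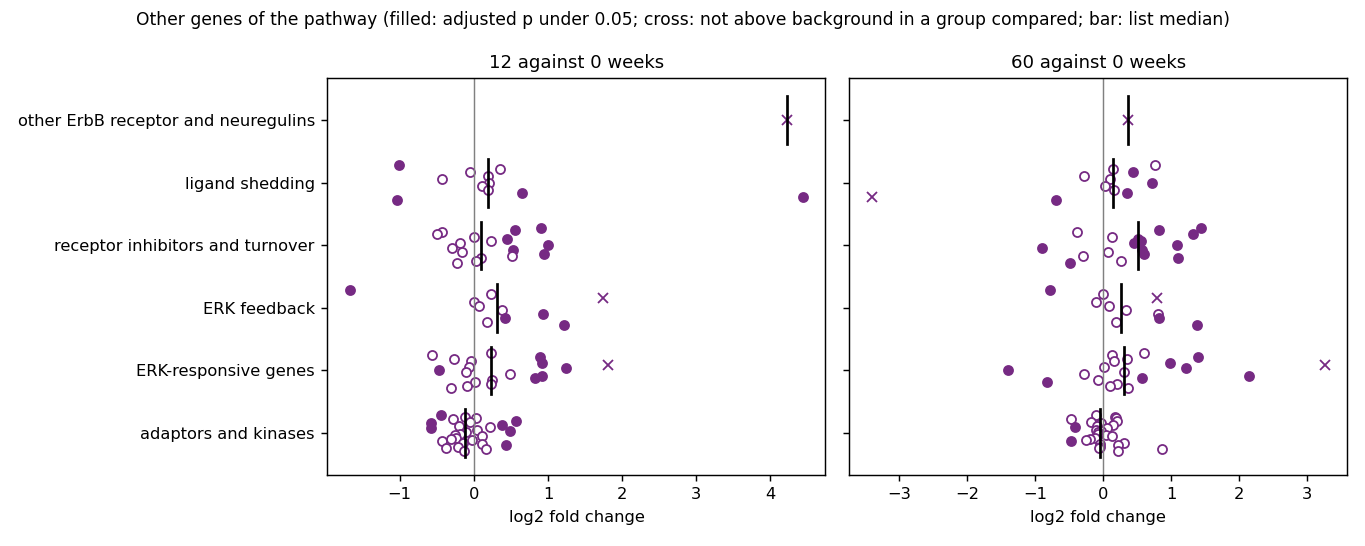
Log2 fold change (horizontal axis) of each tested gene of the 6 lists of other pathway genes (vertical axis), at 12 against 0 weeks (left) and 60 against 0 weeks (right). Filled points have an adjusted p under 0.05, crosses mark genes not above background in a group compared, whose fitted value is not a measured size, and the bar is the list's median. The median of receptor inhibitors and turnover lies at 0.097 on the left and 0.51 on the right, and that of adaptors and kinases near 0 on both sides.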

How the data were processed

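Per the file headers, the authors scanned 9 single-colour arrays and extracted them with Agilent Feature Extraction (version 10.7.3.1, protocol GE1_107_Sep09) for a probe design of build mm9:NCBI37:Jul2007. The deposited intensity of a spot is linear, background-subtracted and without scaling across arrays. A deposited table of values gives 42530 probes a signal that, for 99.74% to 99.8% of the values of an array, lies within 1% of the intensity divided by 1 constant, at 0.993 to 0.9992 of the array's 75th percentile (column medians 0.05815 to 0.07328); its making is not given in the sources used here, and it served as an alternative.

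Control spots and outlier-flagged spots (117 to 163 of 59305 per array) were left out, a probe's spots were averaged, and the 75th percentile of each array over 55681 probes was subtracted on the log2 scale. Saturated spots numbered 0. Probes well above background on at least 2 of 3 arrays of a group were kept. RefSeq accessions named 27235 probes with 1 symbol (GRCm38.p6 table), 0 with several and 28446 with none, and each gene was taken by its brightest probe on average. Promoters came from RefSeq, with a window for 7 of the 10 genes.

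Group means of the 9 arrays were fitted with limma 3.58.1 in R 4.3.3 (lmFit, eBayes, two-sided, Benjamini-Hochberg), without a replicate block, which was an alternative. The script was tested on simulated data. A probe not above background on every array of a group gave a bound, with each such array at the lowest signal called well above background on it or the probe's own value where higher. Normexp (offset 50) used median spot signals. Alternatives were other background corrections, scalings, filters, blocks, probes, array weights, the deposited table, chromosome medians and leaving out each array, and the use of median signals in normexp and the fits of each Egfr probe alone, with all arrays and without replicate 2 of 12 weeks, were chosen after seeing the data.

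The genes and lists were chosen with earlier results of these data known. The text names all 10 genes, up to 5 called genes per list and comparison in order of adjusted p, the 3 most similar genes of each of the 10, and the nearest 2 tested genes on each side of the cluster. Some genes of the lists are not reported here by name. Precision is limited by 3 arrays per group.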

Additional observations from a re-analysis of the deposited data

Results flagged for a closer look

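Tgfa differed in the sign of its change between the times of treatment: all 12 weeks arrays lay below the 0 weeks mean and all 60 weeks arrays above it. Neither change passed the test, at -0.18 and 0.18, and the difference between them, tested as the change from 12 to 60 weeks, was 0.36 (adjusted p = 0.04 by limma). Tgfa was picked for this split in the same arrays, so that p is not independent of the choice. The call was lost in 10 of 22 alternatives, and the F test over the 3 groups did not pass (adjusted p = 0.068).

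Timp3 showed the same split more widely, with all 12 weeks arrays above the 0 weeks mean and all 60 weeks arrays below it. It was picked by the same split, so its test is not independent of the choice either. The difference was -7.84 (adjusted p = 1.3e-05 by limma), a fitted value that rests on 60 weeks arrays not above background. That p is thus no test of a measured size. Its measured bound is a level at least 72.7-fold lower at 60 than at 12 weeks.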

How the results depend on the processing

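Of 669 values of the 10 genes under alternatives, 574 kept their direction and their side of the threshold, 71 lost a call, 15 gained one and 9 turned in sign. The number of genes called at 12 against 0 weeks (8) stayed within 6 to 9 under all 22 alternatives. At 60 against 0 weeks (9 called) it was 4 with the slide row as a block, and otherwise 7 to 9. At 60 against 12 weeks (4 called) it was 2 with the percentile over probes above background on all 9 arrays, 1 without a filter, 1 with only the 2 groups compared, 2 with the slide row as a block and 8 with array weights. Leaving out 1 array at a time gave 7 to 9, 7 to 9 and 1 to 6. With the replicate number as a block the counts were 8, 8 and 3. Same-numbered arrays correlated at -0.0815 to 0.202 in their deviations, those of different number at -0.242 to 0.157, and not every array correlated best with its own number. The labels do not say what the number stands for, and these values cannot show whether same-numbered arrays share an origin. The pairing was not used in the main fit. The 12 weeks change of Egfr (0.94) turned to -0.32 with probe A_55_P1956862 alone and without replicate 2 of 12 weeks. The other turns in sign were 60 against 12 weeks differences of Egf and Erbb2, none of them called: Egf (-0.08) was 0.11 with normexp, 0.09 with quantile normalization, 0.12 with array weights, 0.08 without replicate 2 of 12 weeks and 0.15 without replicate 2 of 60 weeks (-0.28 to 0.15 over all arrays left out), and Erbb2 (-0.07) was 0.01 with normexp, 0.08 with outlier spots kept and 0.01 without replicate 1 of 60 weeks (-0.17 to 0.01). Of the 86 tested genes of the other lists, 29, 31 and 28 were called in the 3 comparisons; array weights gave 46 at 12 against 0 weeks and 51 at 60 against 12 weeks, the slide row as a block 6 at 60 against 0 weeks and 18 at 60 against 12 weeks, where 43 were called without replicate 2 and 18 without replicate 3 of 12 weeks. The cause of these shifts was not tested. Shares over all tested genes are given for the main fit alone, so no shift is read as particular to these genes. Erbb3 is not among the table's probes, and the filter on all 9 arrays leaves out Egf and Epgn.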

Other observations

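Krt20 and Car1, markers of differentiated colonocytes, had their highest mean at 12 weeks, as did Areg, Ereg, Btc and Epgn. Krt20, a keratin of surface cells, was 2.18 ± 0.19 at 0 weeks, 4.16 ± 1.38 at 12 weeks and 0.87 ± 0.18 at 60 weeks (12 against 0 weeks 1.98, adjusted p = 0.0236 by limma), and Car1, a carbonic anhydrase gene, was 1.36 ± 1.10, 5.40 ± 2.66 and -1.37 ± 0.23 (4.03, adjusted p = 0.024). From 12 to 60 weeks Krt20 fell by 3.29 and Car1 by 6.76. Of the 12 colon epithelium markers 4 were called higher and 0 lower at 12 against 0 weeks, beside 41.8% of all genes called. Epcam and Krt18 had their lowest mean at 12 weeks (4.53 ± 0.09 and 9.32 ± 0.13). Itln1, listed among the Paneth cell markers, was not above background at 0 weeks and stood at 3.06 ± 1.65 at 12 weeks and 6.85 ± 0.07 at 60 weeks, while Lyz1 was not above background on any array. The other tested Paneth cell markers moved less. Against 0 weeks Mmp7 changed by -0.11 (adjusted p = 0.927 by limma) and 1.05 (0.351), and Ang4 by -0.08 (0.616) and 0.66 (0.00273). The part of these markers in the ligand results was not tested.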
